A study of Mus musculus with 2 samples.

Results

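The genes described here are small proline-rich genes of the mouse, Sprr1a, Sprr2a1, Sprr2a2, Sprr2a3, Sprr2b, Sprr2d, Sprr2e, Sprr2f and Sprr2g, chosen by symbol and followed in single uterine cells at gestational day 3.5. Of these 9 genes, 8 had a row among the 32285 features, and Sprr2g was not analysed here. The data are unique molecular identifiers (UMIs, 1 for each captured RNA molecule) from 1 library labelled knockout, of genotype Pgrcre/+ Mig-6f/f, and 1 control library, of genotype Mig-6f/f; the design gives n = 1. Mig-6 is the protein of Errfi1, a feedback inhibitor of the EGF receptor. Both genotypes carry the floxed Mig-6 allele. Cre, which is driven from the progesterone receptor gene Pgr and so acts in cells that express it, is named for the library labelled knockout alone. Cells were released with trypsin and passed through a dead cell removal kit, and the age of the mice was not given in the sources used here.

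Small proline-rich proteins are precursors of the cornified envelope, the protein sheet that transglutaminases crosslink beneath the membrane of skin and other barrier epithelia. Their genes lie side by side in the epidermal differentiation complex. In the mouse uterus the Sprr2 genes are known as epithelial genes that estrogen induces, and progesterone opposes much of the estrogen response of the epithelium around implantation. In the mouse intestine a Sprr2a protein is known to act against Gram-positive bacteria.

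The measured genes lie on chromosome 3, at chr3:92215835-92485881 of GRCm38.p6 by RefSeq, a span of 270 kb. The submitters name another build, mm39, so these positions only describe the locus. The 250 bases before the gene start are shown for the 5 members that gave most luminal counts, because Sprr2d and Sprr2e are nearly alike in this stretch while their luminal ratios between the libraries differ. They lie at chr3:92364937-92365186 for Sprr2f, chr3:92316455-92316704 for Sprr2b, chr3:92351893-92352142 for Sprr2e and chr3:92338890-92339139 for Sprr2d, on the plus strand, and at chr3:92485882-92486131 on the minus strand for Sprr1a. Capitals mark the AP-1 motif TGANTCA, the octamer motif ATTTGCAT and the TATA motif TATAAA, each searched on both strands, and no 2 of these matches overlap.
Sprr2f: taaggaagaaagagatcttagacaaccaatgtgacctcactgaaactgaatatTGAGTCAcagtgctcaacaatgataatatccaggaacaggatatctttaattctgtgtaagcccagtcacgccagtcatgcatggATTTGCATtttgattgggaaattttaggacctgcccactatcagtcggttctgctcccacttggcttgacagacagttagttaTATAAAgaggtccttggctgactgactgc
Sprr2b: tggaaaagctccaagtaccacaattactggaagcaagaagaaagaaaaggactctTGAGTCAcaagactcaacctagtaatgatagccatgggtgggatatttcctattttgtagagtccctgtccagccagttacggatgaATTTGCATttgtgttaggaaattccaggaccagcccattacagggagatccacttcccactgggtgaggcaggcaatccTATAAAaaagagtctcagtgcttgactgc
Sprr2e: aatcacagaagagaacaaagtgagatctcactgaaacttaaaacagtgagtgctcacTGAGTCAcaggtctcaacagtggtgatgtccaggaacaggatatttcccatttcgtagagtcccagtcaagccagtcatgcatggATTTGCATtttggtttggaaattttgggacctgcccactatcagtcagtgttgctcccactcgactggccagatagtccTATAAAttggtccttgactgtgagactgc
Sprr2d: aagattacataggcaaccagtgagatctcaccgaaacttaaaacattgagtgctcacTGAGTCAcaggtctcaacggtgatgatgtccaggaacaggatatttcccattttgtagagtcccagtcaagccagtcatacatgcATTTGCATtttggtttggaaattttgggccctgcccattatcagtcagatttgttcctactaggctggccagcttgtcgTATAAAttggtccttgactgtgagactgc
Sprr1a: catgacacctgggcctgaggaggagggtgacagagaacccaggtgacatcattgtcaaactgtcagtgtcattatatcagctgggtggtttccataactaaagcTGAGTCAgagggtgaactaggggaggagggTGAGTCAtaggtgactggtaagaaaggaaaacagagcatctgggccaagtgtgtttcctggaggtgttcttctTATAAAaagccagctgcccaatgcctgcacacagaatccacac

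AP-1 is the Fos and Jun family of factors, and octamer motifs are bound by POU factors such as Pou2f3. Sites of both kinds are known to take part in the activity of human SPRR promoters in keratinocytes. In RefSeq's promoter stretch of 300 bases, which runs 50 bases past the start, AP-1 motifs were present in 5 of 8 members, against 7.81% of 32851 mouse promoters of that length. The octamer was present in 4 of 8 members, against 1.74% of promoters, and TATAAA in 5 of 8, against 13.6%. Counted from the start, the octamer began at -108 in Sprr2b, Sprr2d and Sprr2e and at -112 in Sprr2f. Sprr1a had AP-1 motifs at -146 and -116 and no octamer. The full estrogen response element, the arms GGTCA and TGACC set 3 bases apart, was found in 0 of 8 members, against 0.0700% of promoters. A single arm, which the full element also holds, was found in Sprr2f alone of the 8, against 40.5% of promoters. The STAT motif TTCNNNGAA was found in Sprr2a3 alone, against 8.30%. Aligned over these 300 bases, Sprr2d and Sprr2e were identical at 89.1% of columns, Sprr2e and Sprr2f at 75.8%, and Sprr2a1 and Sprr2a2 at 100%. A match is a run of letters and not a site shown to be bound.

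After filters on genes, mitochondrial RNA and likely doublets, 2881 barcodes were kept in the library labelled knockout, with a median of 4892 UMIs, and 4303 in the control library, with a median of 9175 UMIs. They were classed by marker RNA. Luminal barcodes, from the epithelium that lines the uterine cavity, numbered 1327 in the library labelled knockout (46.1% of those kept; median 9832 UMIs) and 645 in the control library (14.99%; median 11977 UMIs). There were 101 glandular barcodes in the library labelled knockout, with a median of 5745 UMIs, and 103 in the control library, with a median of 10667 UMIs. The remainder were 1453 other barcodes in the library labelled knockout and 3555 in the control library. In luminal barcodes the 4 luminal markers were all detected, and they summed to 192.5 CPM (UMIs per 1000000 of the class) in the library labelled knockout, against 605.4 CPM in the control library; Calb1, a calcium-binding protein of receptive luminal cells, was 16.0 CPM, against 352.3 CPM in the control library. Errfi1 stood at 508.6 CPM in luminal barcodes of the library labelled knockout and 539.3 CPM in those of the control library. In other barcodes it stood at 679 CPM in the library labelled knockout and 191.7 CPM in the control library. Whether the counted reads cover the deleted part is unknown, so Errfi1 does not check the label. With 1 library per genotype there was no test between genotypes, and every interval below is a 95% interval for counting error only.

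Members can share reads. In the last 500 bases of the GENCODE M21 transcripts, 100% of runs of 90 bases in Sprr2a1 and Sprr2a2 were also present in another Sprr2a gene, as were 28.5% and 56.2% of those in the 2 transcripts of Sprr2a3. For Sprr1a, Sprr2b, Sprr2d, Sprr2e and Sprr2f the share was 0%. The values of the Sprr2a genes are therefore uncertain, since the read length, the captured end of the transcript and the treatment of shared reads were not given in the sources used here.

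In both libraries the summed family was highest in luminal barcodes, and there it was almost all Sprr2f. Summed over members, luminal barcodes held 5535 CPM (5500 to 5571) in the library labelled knockout and 4509 CPM (4467 to 4552) in the control library, a ratio of 1.23 (1.21 to 1.24). Luminal barcodes carried 98.3% of all family UMIs in the library labelled knockout and 99.1% in the control library. At least 1 family UMI was seen in 96.4% of luminal barcodes of the library labelled knockout and 90.5% of those of the control library, a difference of 5.84 percentage points (3.51 to 8.49). With each barcode thinned to 2000 UMIs, the share was 92.2% in the library labelled knockout, where 52 shallower barcodes were left out, and 83.7% in the control library, where 30 were. Over the whole libraries, which differ in their share of luminal barcodes, the family stood at 4209 CPM in the library labelled knockout and 1020 CPM in the control library, a ratio of 4.13 (4.08 to 4.18).

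**Figure D1:**
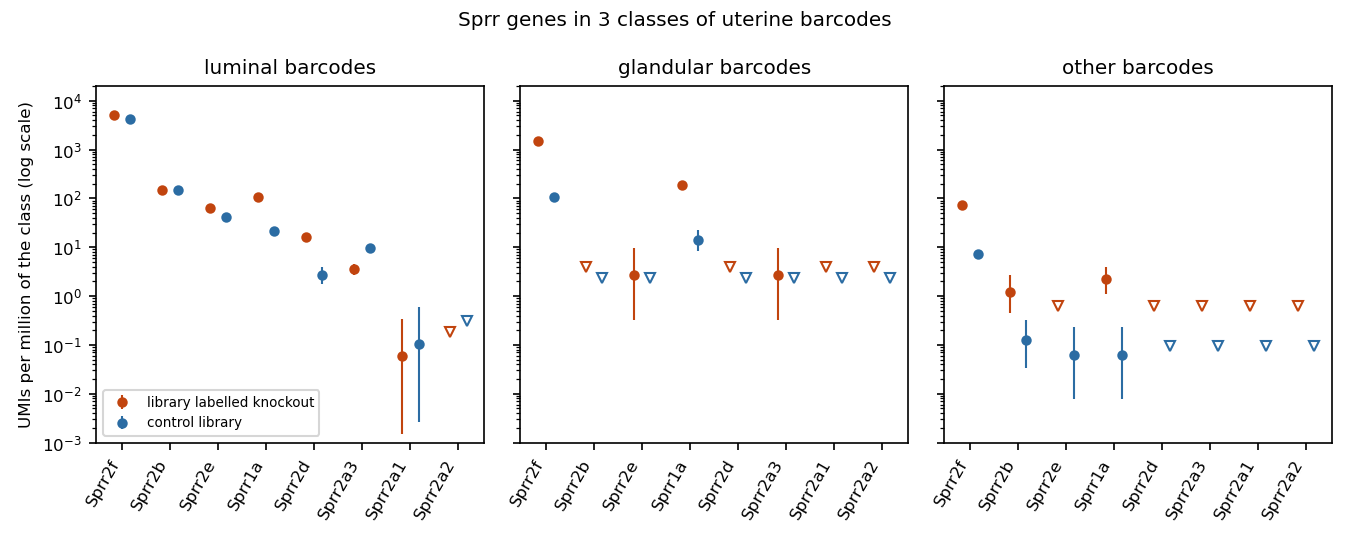
Levels of the 8 measured members in luminal, glandular and other barcodes (CPM, log scale), with the library labelled knockout left of the control library in each pair. Points are UMI sums with exact 95% Poisson intervals, and open triangles stand for 0 UMIs, drawn at the level of 3 UMIs; Sprr2f led in every class, and Sprr2b had 0 glandular UMIs in each library.

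Sprr2f gave 86775 of 92427 luminal family UMIs in the library labelled knockout (93.9%) and 40811 of 42946 in the control library (95.03%). Its level was 5197 CPM in the library labelled knockout and 4285 CPM in the control library, a ratio of 1.21 (1.20 to 1.23). By UMIs it ranked number 9 among non-mitochondrial genes in luminal barcodes of the library labelled knockout and number 12 in those of the control library. UMIs count molecules, and levels were not divided by transcript length; the annotated transcripts of Sprr2f, Sprr2b and Sprr1a are 609, 784 and 806 bases long. Below Sprr2f, UMIs ran from Sprr2b through Sprr1a, Sprr2e and Sprr2d to Sprr2a3 in the library labelled knockout. In the control library they ran from Sprr2b through Sprr2e, Sprr1a and Sprr2a3 to Sprr2d. In neither order did the counting intervals of neighbours overlap.

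Of the 6 members with at least 100 luminal UMIs, 2 were at least 2-fold higher in the library labelled knockout, as were 4.20% of 10092 genes, and 1 was at least 2-fold lower, as were 10.2% of genes. The median log2 ratio of the 6 was 0.45, against -0.12 over all 10092 genes. The higher members were Sprr1a and Sprr2d. Sprr2d reached 100 UMIs only through the library labelled knockout, so the limit itself favoured a higher ratio for it. Sprr1a, which injured mouse neurons are also known to switch on, had 108.8 CPM (103.9 to 113.9) in the library labelled knockout and 21.2 CPM (18.4 to 24.3) in the control library, a ratio of 5.13 (4.43 to 5.96). It was detected in 499 luminal barcodes (37.6%) of the library labelled knockout and 79 (12.2%) of the control library. After thinning, it was detected in 14.98% of luminal barcodes of the library labelled knockout and 3.74% of those of the control library. No single barcode dominated: the highest held 1.65% of Sprr1a UMIs in the library labelled knockout and 5.45% in the control library.

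Sprr2d had 265 UMIs in 87 luminal barcodes of the library labelled knockout, or 15.9 CPM, and 26 UMIs in 14 barcodes of the control library, or 2.73 CPM. The ratio was 5.81 (3.88 to 9.07). A single control barcode held 12 of the 26 UMIs, and without the highest barcode of each library the ratio was 10.1 (5.91 to 18.8). Sprr2e, whose promoter stretch above is closest to that of Sprr2d, had 64.1 CPM in the library labelled knockout and 41.8 CPM in the control library, a ratio of 1.53 (1.37 to 1.73). It was detected in 23.1% of luminal barcodes of the library labelled knockout and 14.3% of those of the control library. The intervals of the Sprr2d and Sprr2e ratios did not overlap.

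Sprr2b had 146.1 CPM (140.3 to 152) in luminal barcodes of the library labelled knockout and 148.9 CPM (141.2 to 156.8) in those of the control library, a ratio of 0.981 (0.919 to 1.05). The interval holds 1, and other settings fell on either side of it: 1.06 with median-of-ratios scaling, 1.01 without the highest barcode of each library and 0.852 after thinning, which also leaves out shallow barcodes. Sprr2a3 was the lower member, with 59 UMIs (3.53 CPM) in the library labelled knockout and 90 UMIs (9.45 CPM) in the control library, a level 2.67-fold lower (1.90 to 3.78). Sprr2a1 had 1 luminal UMI in each library. Sprr2a2 had 0 in each, which at 3 UMIs allows up to 0.180 CPM in the library labelled knockout and 0.315 CPM in the control library. Without Sprr2f, the luminal ratio of the summed members was 1.51.

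**Figure D2:**
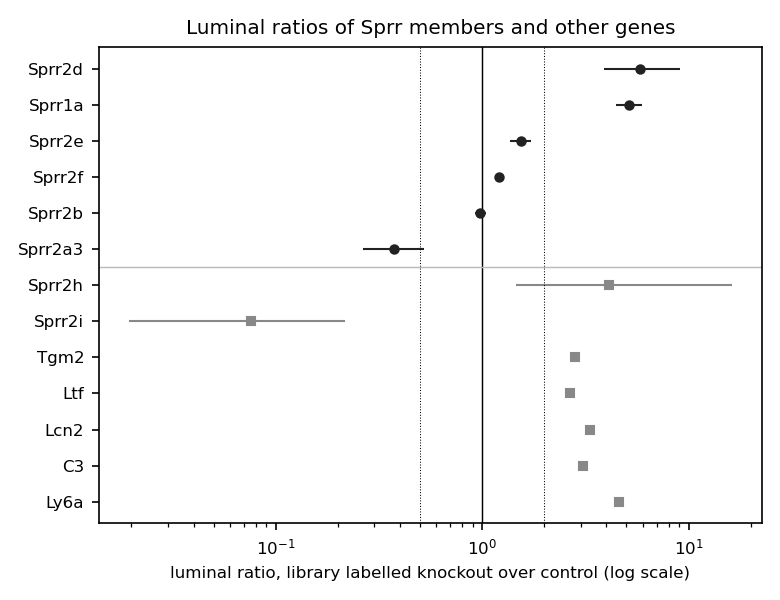
Ratios of luminal levels, library labelled knockout over control library (log scale), with exact 95% intervals for counting error. Circles are the 6 members with at least 100 UMIs and squares are Sprr2h, Sprr2i, Tgm2, Ltf, Lcn2, C3 and Ly6a; dotted lines mark 2-fold, past which lie Sprr2d (5.81), Sprr1a (5.13) and Sprr2a3 (0.374) among the members.

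The family varied widely between luminal barcodes of the same library, and the libraries stood furthest apart, as a ratio, at the low end. The median luminal barcode held 45.1 family UMIs per 10000 in the library labelled knockout and 28.1 in the control library; the SD over barcodes was 43.9 in the library labelled knockout and 45.2 in the control library. The lower quartile was 23.0 per 10000 in the library labelled knockout and 7.55 in the control library. The upper quartile was 74.99 per 10000 in the library labelled knockout and 62.9 in the control library, so the curves came closer at high levels. No family UMI was seen in 3.62% of luminal barcodes of the library labelled knockout and 9.46% of those of the control library. The 10% of barcodes with most family UMIs held 33.5% of them in the library labelled knockout and 37.4% in the control library. After thinning, the variance of the family count was 8.13 times its mean in the library labelled knockout and 10.3 times in the control library; sampling from 1 common level would make variance and mean equal.

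**Figure D3:**
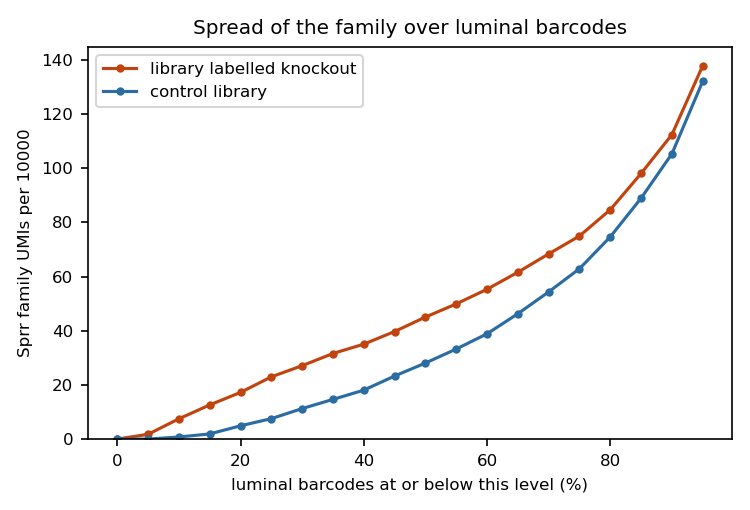
Family UMIs per 10000 (vertical axis) against the percent of luminal barcodes at or below that level, for the library labelled knockout and the control. The curve of the library labelled knockout lies above that of the control library at the median (45.1 and 28.1) and at the upper quartile (74.99 and 62.9).

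Barcodes differed in how many members they showed. Exactly 1 member was detected in 37.4% of luminal barcodes of the library labelled knockout and 44.5% of those of the control library. Exactly 3 members were detected in 19.5% of luminal barcodes of the library labelled knockout and 9.46% of those of the control library. Sprr2f was seen in nearly all barcodes, with or without Sprr2b. In the library labelled knockout it was detected in 99.3% of barcodes with Sprr2b and 92.6% of those without, and in the control library in 98.98% of barcodes with Sprr2b and 84.4% of those without. Correlations between members across barcodes were low. Pearson's r of log levels between Sprr2f and Sprr2b was 0.25 across 1327 barcodes of the library labelled knockout and 0.36 across 645 of the control library. Between Sprr2f and Sprr1a it was 0.08 in the library labelled knockout and 0.00 in the control library. Barcodes of a library share its free RNA and vary in depth, and in such sparse counts weak values are no finding.

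Luminal barcodes thinned to 2000 UMIs were ranked by Sprr2f and split into 4 quartile groups. Sprr2b was highest where Sprr2f was highest. It was 40.8, 116, 148.9 and 263 CPM from the lowest to the highest group of the library labelled knockout, and 13.0, 100.6, 123 and 431 CPM in those of the control library. Sprr2e was 50.2, 62.7, 53.3 and 103.8 CPM in the groups of the library labelled knockout, where the intervals of the lowest and highest group did not overlap. In the control library it was 29.2, 29.2, 42.2 and 62.1 CPM, from 9 to 19 UMIs each, and those intervals overlapped. Sprr1a showed no order beyond counting error in either library. It was 101.9, 106.6, 127 and 133.6 CPM in the groups of the library labelled knockout, from 65 to 85 UMIs each, and 13.0, 32.5, 19.5 and 19.6 CPM in those of the control library, from 4 to 10 UMIs each. In each of the 4 groups the Sprr1a intervals of the libraries did not overlap, and the level was higher in the library labelled knockout. Calb1 ran the other way: it was 39.2 CPM in the lowest and 7.86 CPM in the highest group of the library labelled knockout, and 578 CPM in the lowest and 291 CPM in the highest group of the control library.

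**Figure D4:**
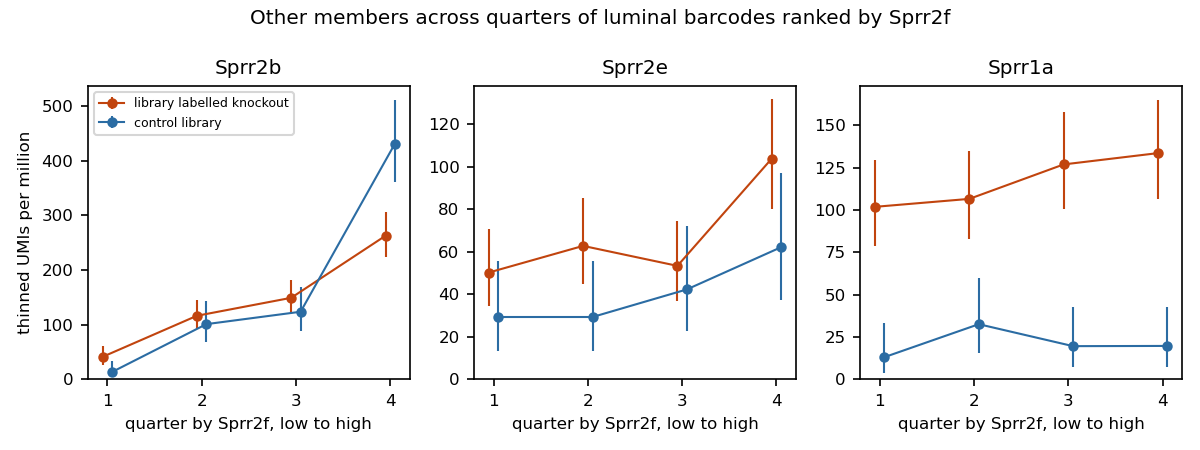
Levels of Sprr2b, Sprr2e and Sprr1a (CPM after thinning to 2000 UMIs per barcode) in 4 equal groups of luminal barcodes ranked by Sprr2f from low to high, for the library labelled knockout and the control. Error bars are exact 95% Poisson intervals; in the highest group Sprr2b was 263 CPM in the library labelled knockout and 431 CPM in the control library, and the Sprr1a intervals of a library overlap across its groups.

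The 8 genes whose RNA varied most like the family across luminal barcodes, by the lower of the Pearson correlations in the 2 libraries, were C3, Ly6a, Ltf, Prap1, Tgm2, Lcn2, Sftpd and Krt7, of 9219 genes ranked. Complement C3 had r = 0.41 across the 1327 barcodes of the library labelled knockout and 0.38 across the 645 of the control library. Tgm2, a transglutaminase, had r = 0.31 in the library labelled knockout and 0.43 in the control library. The median gene had r = 0.00 in the library labelled knockout and 0.03 in the control library. The luminal ratio between libraries was above the family's 1.23 for 7 of the 8. It was 9.30 (9.14 to 9.46) for Prap1, a secreted proline-rich acidic protein, 4.60 (4.38 to 4.83) for the surface protein gene Ly6a and 1.73 (1.69 to 1.78) for the keratin Krt7. Sftpd, surfactant protein D, had a ratio of 1.12 (1.08 to 1.17).

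Luminal barcodes split by the summed RNA of named markers, at 5 UMIs per 10000, had unequal family levels. A barcode could pass by any of the markers alone. In the library labelled knockout, 385 barcodes with summed Il1a, Icam1 and Cxcl2 at or above 5 per 10000 held 6227 family CPM, and the 942 below it held 5234 CPM. Sprr2d stood at 32.5 CPM in those 385 barcodes and 8.60 CPM in the 942. In the control library the same split gave 4598 family CPM in 48 barcodes and 4503 CPM in 597, where the intervals overlapped. Sprr2d there was 1.53 CPM in the 48 and 2.82 CPM in the 597, the opposite order to the library labelled knockout, with overlapping intervals. Control barcodes that passed by summed Lgr5 and Cap2 (115 barcodes) held 3394 family CPM, against 4725 CPM in the other 530. Sprr1a was 43.4 CPM in the 115, against 16.9 CPM in the 530. In the library labelled knockout the Lgr5 and Cap2 split gave Sprr1a at 59.5 CPM in 17 barcodes and 109.2 CPM in the other 1310, the opposite order, with overlapping intervals. The family there kept the order of the control library, at 4142 CPM in the 17 and 5547 CPM in the 1310. Control barcodes that passed by summed Chil1 and Nt5e (62 barcodes) held 6480 family CPM, against 4316 CPM in the other 583. The order was the same in the library labelled knockout, with 6657 CPM in 28 barcodes and 5523 CPM in the other 1299.

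In glandular barcodes, which carry RNA of the gland genes Prss29, Prss28, Spink1, Cxcl15 and Krt83, the family was higher in the library labelled knockout. It stood at 1660 CPM (1570 to 1755) in the library labelled knockout and 119.5 CPM (101.3 to 140.1) in the control library, a ratio of 13.9 (11.7 to 16.5). At least 1 family UMI was seen in 53.5% of glandular barcodes of the library labelled knockout and 29.1% of those of the control library. After thinning, the share was 44.8% in the library labelled knockout and 8.82% in the control library. Both members with at least 100 glandular UMIs were at least 2-fold higher, as were 2.49% of 3578 genes, and 0 were 2-fold lower, as were 2.52% of genes. Sprr1a reached 100 UMIs only through the library labelled knockout, so the limit itself favoured a higher ratio and the count is no support. Sprr2f had 1471 CPM in the library labelled knockout and 105.4 CPM in the control library, a ratio of 14.0 (11.7 to 16.8). Sprr1a had 139 UMIs in 28 barcodes (183.7 CPM) of the library labelled knockout and 18 UMIs in 8 barcodes (14.2 CPM) of the control library, a ratio of 13.0 (7.92 to 22.5). Few barcodes carried these counts. The 10 highest held 67.7% of glandular family UMIs in the library labelled knockout and 82.9% in the control library.

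The makeup of the family differed between the epithelia. Sprr1a was 11.1% (9.38 to 12.9) of glandular family UMIs in the library labelled knockout and 11.8% (7.17 to 18.1) in the control library. Of luminal family UMIs it was 1.97% (1.88 to 2.06) in the library labelled knockout and 0.470% (0.408 to 0.540) in the control library. In the library labelled knockout the Sprr1a level was higher in glandular barcodes, at 183.7 CPM (154.5 to 216.9), than in luminal barcodes, at 108.8 CPM (103.9 to 113.9). In the control library the intervals overlapped, with 14.2 CPM (8.39 to 22.4) in glandular and 21.2 CPM (18.4 to 24.3) in luminal barcodes. Sprr2b had 0 glandular UMIs in each library, which at 3 UMIs allows up to 3.97 CPM in the library labelled knockout and 2.36 CPM in the control library. At the luminal proportion of Sprr2b to Sprr2f, glandular Sprr2f would have come with 31.3 Sprr2b UMIs in the library labelled knockout and 4.66 in the control library. Sprr2d also had 0 glandular UMIs in each library. Sprr2e and Sprr2a3 each had 2 glandular UMIs in the library labelled knockout and 0 in the control library.

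Epithelial markers also differed between the libraries in glandular barcodes. The 6 gland markers, all detected, summed to 9712 CPM in glandular barcodes of the library labelled knockout and 22810 CPM in those of the control library. Foxa2, a transcription factor of uterine glands and 1 of the 6, was 37.0 CPM in the library labelled knockout and 69.2 CPM in the control library. Of 4 luminal markers 3 were detected in each library, with Wnt7a at 0. These markers summed to 50.2 CPM in the library labelled knockout, from 38 UMIs, and 22.0 CPM in the control library, from 28 UMIs. The summed family level differed between groups of barcodes split by the level of the gland genes. Barcodes with 10 to 50 gland gene UMIs per 10000 held 2577 family CPM in the library labelled knockout and 315 CPM in the control library, a ratio of 8.18 (5.68 to 12.2). Those with 50 to 200 held 1282 CPM in the library labelled knockout and 132.1 CPM in the control library, a ratio of 9.71 (7.68 to 12.4). Those with 200 or more held 62.3 CPM in 15 barcodes of the library labelled knockout and 71.1 CPM in 45 of the control library, a ratio of 0.876 (0.269 to 2.22), so the direction of the glandular ratio did not hold there. In the library labelled knockout, 50% of barcodes at 10 to 50 and 67.4% at 50 to 200 had a family UMI, the reverse of the summed levels. Their medians were 0.733 and 2.29 family UMIs per 10000. In the control library those shares were 30% and 33.3%. Among barcodes with Foxa2 RNA the family stood at 1045 CPM in 22 barcodes of the library labelled knockout and 96.0 CPM in 53 of the control library, a ratio of 10.9 (8.29 to 14.5). The part of luminal RNA in the glandular difference was not tested.

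**Figure D5:**
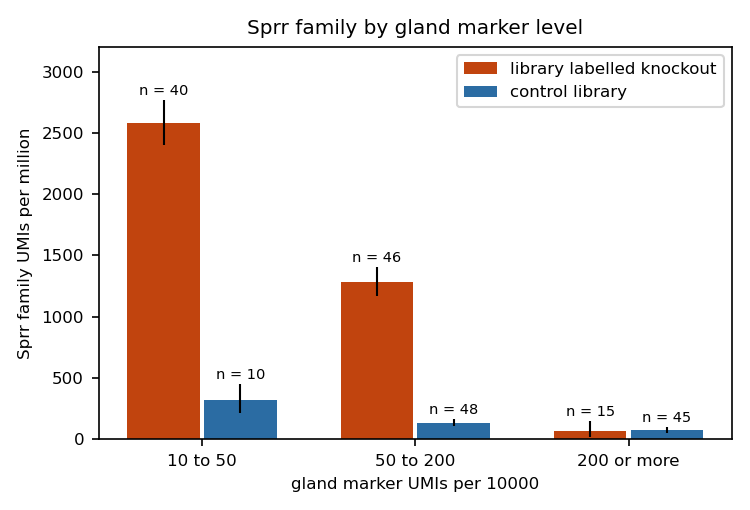
Family level (CPM) in glandular barcodes grouped by gland gene UMIs per 10000, with the library labelled knockout left of the control library in each pair, exact 95% Poisson intervals and the number of barcodes. The levels differ below 200 per 10000 (2577 CPM in the library labelled knockout and 315 CPM in the control library in the lowest group), and the intervals overlap above it (62.3 CPM in the library labelled knockout and 71.1 CPM in the control library).

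In other barcodes, where 7 stromal markers summed to 4148 CPM in the library labelled knockout and 4553 CPM in the control library, the family was low. It stood at 75.2 CPM in the library labelled knockout and 7.60 CPM in the control library, a ratio of 9.90 (8.39 to 11.7). Immune and endothelial barcodes, a part of this class, held 58.7 CPM (39.0 to 84.9) in the library labelled knockout, from 28 UMIs. In the control library they held 7.26 CPM (3.48 to 13.4), from 10 UMIs. Each interval holds the level of the whole class in its library. The ratio after subtracting these levels, 48.7, therefore divides remainders within counting error and gives no usable size. Sprr2f alone had at least 100 UMIs in this class; it was at least 2-fold higher, as were 6.77% of 11811 genes, while 6.07% were 2-fold lower. At least 1 family UMI was seen in 12.3% of other barcodes of the library labelled knockout and 6.13% of those of the control library, and after thinning in 7.67% in the library labelled knockout and 1.48% in the control library. Immune and endothelial barcodes, which should lack the genes, gave 11.3% of 221 barcodes in the library labelled knockout, at a median of 1825 UMIs, and 4.33% of 208 in the control library, at a median of 5752 UMIs. Thinned, the share was 12.9% (7.04 to 21.0) of 101 barcodes in the library labelled knockout, where 120 shallower barcodes were left out. In the control library it was 2.54% (0.829 to 5.82) of 197, with 11 left out. Each interval holds the thinned share of other barcodes in its library, so no expression is read from those shares. The part of free RNA in the level was not tested. In the library labelled knockout 5 other barcodes held at least 10 family UMIs each and 42.9% of the 368 UMIs, and in the control library 0 did. Without them the level was 43.1 CPM in the library labelled knockout and 7.60 CPM in the control library, a ratio of 5.67. The 7 epithelial markers, all detected, summed to 55.0 CPM in other barcodes of the library labelled knockout and 9.15 CPM in those of the control library.

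Genes around the family were read from 3 lists, chosen with earlier results of these data known. Among genes with at least 20 luminal UMIs, 5.40% of 13170 were at least 2-fold higher in the library labelled knockout and 15.4% at least 2-fold lower. Of 34 genes of the cornified envelope and the Sprr neighbourhood, 16 passed 20 UMIs, and 4 of these were 2-fold higher, 3 lower and 9 within 2-fold (median log2 ratio 0.25). The 4 higher genes were Sprr2h, Sprr2k, Tgm2 and Pglyrp3, and the 3 lower were Sprr2i, Tchh and Evpl. Sprr2h and Sprr2k passed 20 UMIs only through the library labelled knockout, and Sprr2i and Tchh only through the control library. The limit itself favoured their calls, so these counts are no support. Pglyrp3 had 18 UMIs in the library labelled knockout and 5 in the control library. Its ratio was 2.05 (0.735 to 7.08), and that interval holds 1. Tgm2 stood at 2147 CPM in the library labelled knockout and 758.5 CPM in the control library, a ratio of 2.83 (2.76 to 2.90). The other genes of this list were far below Tgm2. Lce3c, a late cornified envelope gene, was the next by UMIs, at 48.9 CPM in the library labelled knockout and 42.5 CPM in the control library, and periplakin (Ppl) had 396 UMIs in the library labelled knockout and 268 in the control library. The skin transglutaminase gene Tgm1 had 20 UMIs in the library labelled knockout and 15 in the control library, involucrin (Ivl) 71 in the library labelled knockout and 33 in the control library, and loricrin (Lor) 329 in the library labelled knockout and 289 in the control library. Envoplakin (Evpl), which links the envelope to keratin, was 4.09-fold lower (2.41 to 7.18), at 1.26 CPM in the library labelled knockout and 5.14 CPM in the control library.

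Of 20 genes that estrogen induces in uterine epithelium, 19 passed 20 UMIs, and 11 were 2-fold higher in the library labelled knockout, 1 lower and 7 within 2-fold (median log2 ratio 1.03). Clca1, a regulator of calcium-activated chloride channels, stood at 670.3 CPM in the library labelled knockout and 1.15 CPM in the control library, a ratio of 580 (324 to 1163). It passed 20 UMIs only through the library labelled knockout, with 11 UMIs in the control library, so the limit itself favoured a higher ratio. The mucin gene Muc4 stood at 44.6 CPM in the library labelled knockout and 3.88 CPM in the control library, a ratio of 11.5 (8.24 to 16.4). The keratin gene Krt17 was 6.82-fold lower, at 16.5 CPM in the library labelled knockout and 112.8 CPM in the control library. The luminal ratio of Sprr2f, 1.21, lies below those of lactotransferrin (Ltf, 2.65), lipocalin (Lcn2, 3.32) and C3 (3.07), and that of Sprr1a, 5.13, lies above them.

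Of 23 transcription factors of barrier epithelium, 22 passed 20 UMIs, and 3 were 2-fold higher in the library labelled knockout, 0 lower and 19 within 2-fold (median log2 ratio 0.24). The AP-1 factor Fosl1 had 36.2 CPM in the library labelled knockout and 14.8 CPM in the control library, a ratio of 2.44 (2.03 to 2.96). The other 6 listed Fos and Jun genes were within 2-fold and more abundant, with ratios from 0.794 (0.768 to 0.820) for Fos to 1.49 (1.38 to 1.61) for Fosb. Fos itself stood at 522 CPM in the library labelled knockout and 657.9 CPM in the control library. Elf3, an epithelial ETS factor, had 195.9 CPM in the library labelled knockout and 81.5 CPM in the control library, a ratio of 2.40 (2.22 to 2.60). The octamer-binding factor Pou2f3 was scarce, with 39 UMIs in the library labelled knockout and 10 in the control library, a ratio of 2.22 (1.09 to 4.997). It passed 20 UMIs only through the library labelled knockout, so the limit itself favoured a higher ratio. The estrogen receptor gene Esr1 stood at 457.3 CPM in the library labelled knockout and 540.7 CPM in the control library, a ratio of 0.846 (0.816 to 0.876). Pgr, the gene that carries the Cre allele, stood at 59.4 CPM in the library labelled knockout and 47.5 CPM in the control library, a ratio of 1.25 (1.12 to 1.40).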

How the data were processed

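The deposited matrices hold whole-number UMI counts per gene and barcode; per the file headers, the tool was Cell Ranger 7.0.1. The build mm39 and Seurat are named per the submitters' processing notes. The members, gene lists and splits were chosen with earlier results of these data known.

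As deposited, there were 3118 barcodes with 23317904 UMIs in the library labelled knockout and 4627 with 44871170 in the control library, with 3 barcode sequences in common. Barcodes under 500 genes or over 15% mitochondrial UMIs were dropped, and the highest Scrublet scores (scanpy 1.11.5) were removed at 0.8% per 1000 barcodes, 70 in the library labelled knockout and 159 in the control library. Epithelial barcodes had at least 10 UMIs per 10000 of Epcam, Krt8, Krt18 and Cldn7, and were glandular with at least 10 of the 5 gland genes and luminal below that. Near the epithelial limit, 26 barcodes of the library labelled knockout and 8 of the control library lay between 5 and 10 per 10000, while 54 of the library labelled knockout and 35 of the control library lay between 10 and 20. Near the gland limit, 23 epithelial barcodes of the library labelled knockout and 1 of the control library lay between 5 and 10, while 12 of the library labelled knockout and 3 of the control library lay between 10 and 20.

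Counts were summed per class and divided by the class total (CPM, per 1000000). Intervals for CPM are exact Poisson, those for shares exact binomial, those for ratios exact conditional and that for the difference in shares Newcombe's (scipy 1.17.1, statsmodels 0.14.6), all at 95% and for counting error only. Named genes are all members, list genes from the 5 largest and 5 smallest luminal ratios with at least 20 UMIs, the 8 genes most like the family and Errfi1. Tgm1, Ivl, Lor, Lce3c, Ppl, Fosb, Esr1, Pgr, Calb1 and the marker genes were named in addition after their values were seen. All columns were mapped to a sample, with 0 left out. The ratio script was tested on simulated data. Promoters are RefSeq's (GRCm38.p6), matched by symbol for 8 of 9 members, and alignments used Biopython 1.88.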

Additional observations from a re-analysis of the deposited data

How the results depend on the processing

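With 1 library per genotype, differences between the libraries cannot be told apart from differences between mice or preparations. No paired analysis was possible because each group has 1 library and no result comes from a test. The luminal family ratio of 1.23 was 1.24 with all deposited barcodes and without doublet removal, 1.26 after thinning to 2000 UMIs, 1.28 as a mean over cells and 1.33 with median-of-ratios scaling, which centres the median log2 ratio of all luminal genes (-0.12) near 0; chosen after seeing the data, leaving out Sprr2f gave 1.51. The glandular ratio of 13.9 was 10.8 after thinning and 10.1 as a mean over cells. With a gland minimum of 200 per 10000, chosen after seeing the data, it was 0.876, on 15 barcodes of the library labelled knockout and 45 of the control library. The ratio in other barcodes of 9.90 was 7.44 with an epithelial minimum of 20 and 7.83 after thinning. Subtracting the immune and endothelial level gave 48.7, a ratio of remainders within counting error that gives no usable size. Chosen after seeing the data, the ratio in other barcodes was 7.76 without the highest barcode of each library and 5.67 without barcodes of at least 10 family UMIs. The cause of these shifts was not tested. The count of 2 luminal members at least 2-fold higher stood under each of the 10 other settings tried. Member ratios ranged from 4.93 to 5.73 for Sprr1a, 3.76 to 6.31 for Sprr2d, 1.53 to 1.67 for Sprr2e, 1.20 to 1.32 for Sprr2f, 0.852 to 1.06 for Sprr2b, which thus lay on either side of 1, and 0.335 to 0.406 for Sprr2a3, which had too few UMIs after thinning. The share difference could not be computed for a mean over cells, subtracted free RNA or another scaling.

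Counts of genes at least 2-fold higher and lower rise as scarcer genes are let in. In luminal barcodes they were 424 and 1034 with at least 100 UMIs, 711 and 2027 with at least 20, and 3041 and 5195 with at least 1. In glandular barcodes they were 89 and 90, then 391 and 470, then 2126 and 3056, and in other barcodes 800 and 717, then 1420 and 1519, then 3386 and 6128.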

Other observations

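Sprr genes outside the 9 members were scarce in luminal barcodes and did not move one way. Sprr2k, whose start lies between those of Sprr2f and Sprr1a on the chromosome, had 140 UMIs in 56 luminal barcodes of the library labelled knockout and 0 in the control library, which is at least 26.6-fold higher against 3 UMIs in the control library. Sprr2h had 29 UMIs in the library labelled knockout and 4 in the control library, a ratio of 4.14 (1.45 to 16.2). Sprr1b had 8 UMIs in the library labelled knockout and 0 in the control library. Sprr2i was lower, with 4 UMIs in 3 barcodes of the library labelled knockout and 30 UMIs in 7 barcodes of the control library, of which 16 came from a single barcode. Sprr2h, Sprr2i and Sprr2k had the AP-1, octamer and TATA motifs in their promoter stretches, and 0 of their runs of 90 bases were shared with another Sprr transcript.

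The genes that varied least like the family across luminal barcodes included Syn2, the synaptic vesicle gene, with r = -0.23 in the library labelled knockout and -0.34 in the control library, and Cbs, an enzyme of cysteine synthesis, with -0.22 in both. Both were lower in the library labelled knockout. Syn2 had 11.9 CPM in the library labelled knockout and 143.8 CPM in the control library, and Cbs had 29.1 CPM in the library labelled knockout and 165.8 CPM in the control library.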
